A study of Mus musculus with 16 samples.

Results

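The Iroquois homeobox genes Irx1 to Irx6 are 6 genes in 2 clusters of 3, IrxB on chromosome 8 (Irx3, Irx5 and Irx6) and IrxA on chromosome 13 (Irx1, Irx2 and Irx4). They were chosen by name, and the regions examined were those with at least 1 bp within 50 kb of their gene bodies on mm10. All 6 were found among 21887 protein-coding genes, and 0 of 10888 succinyllysine regions, 9 of 26654 H3K4me3 regions and 116 of 98342 H3K27me3 regions lay in these windows. The regions come from chromatin immunoprecipitation and sequencing of immortalized mouse embryonic fibroblasts. The experimental cell line was R26M2rtTA/+;TetOcre;Sdhcfl/fl and the control line R26M2rtTA/+;TetOcre;Sdhcfl/wt. In both, doxycycline at 1 µg/mL turns on the TetOcre transgene through the M2rtTA activator at the Rosa26 locus. Cre then removes the floxed copies of Sdhc, which encodes a subunit of succinate dehydrogenase, so that the control line keeps its wild-type copy. At day 16 each line gave 2 samples each of input chromatin and of chromatin bound by antibodies to succinyllysine, H3K4me3 and H3K27me3, 16 samples in all. One list of regions was deposited per antibody for the 4 samples of both lines, so the fl/fl and fl/wt cells cannot be told apart, no value carries a replicate error and no test between groups was made. Each group is a single cell line, the labels do not say whether its 2 samples came from separate cultures, and loss of Sdhc cannot be checked from lists of regions. Read depth is unknown.

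Iroquois proteins are homeodomain transcription factors of the TALE class, which carry extra residues in the loop between the first helices of the homeodomain. They pattern the neural tube, heart, lung and limb, and the IrxB and IrxA clusters arose by duplication, so that Irx3 is paired with Irx1, Irx5 with Irx2 and Irx6 with Irx4. H3K4me3 marks active or poised promoters, H3K27me3 is laid down by Polycomb repressive complex 2 over silent developmental genes, and succinyllysine is a lysine acylation derived from succinyl-CoA.

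The members fell into the same 2 states in each cluster. Irx3, Irx5, Irx1 and Irx2 had H3K4me3 over most of the gene body and no H3K27me3 there, whereas Irx6 and Irx4 were almost wholly covered by H3K27me3 and had no H3K4me3. No member had succinyllysine within 50 kb. The clusters differed in what lay around the genes. Within 50 kb of the members H3K27me3 covered 29.7% in IrxB and 13.2% in IrxA, a 2.26-fold ratio, and within 10 kb it covered 39.4% in IrxB and 32.5% in IrxA. Over the intervals between members, a measure chosen after seeing the data, it covered 29.6% in IrxB and 3.19% in IrxA, a 9.30-fold ratio.

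RefSeq start-site sequences (GRCm38.p6, the mm10 build, from 250 bases before to 50 bases after the start) matched 3 of the 6 members, Irx2, Irx3 and Irx4. They are shown 5′ to 3′ on the strand of the gene because they put a sequence under each of the states, with H3K4me3 covering all 300 bases at Irx3 and Irx2 and H3K27me3 covering all 300 bases at Irx4. Capitals mark CG dinucleotides. Irx3 lies at chr8:91801605-91801904 on the minus strand, Irx2 at chr13:72628570-72628869 on the plus strand and Irx4 at chr13:73260247-73260546 on the plus strand. The Irx3 start is the upper end of its gene body. The starts of Irx2 (72628820) and Irx4 (73260497) lie inside bodies that begin at 72624430 and 73259589. Their sequences are therefore not those at the gene ends counted below.
Irx3: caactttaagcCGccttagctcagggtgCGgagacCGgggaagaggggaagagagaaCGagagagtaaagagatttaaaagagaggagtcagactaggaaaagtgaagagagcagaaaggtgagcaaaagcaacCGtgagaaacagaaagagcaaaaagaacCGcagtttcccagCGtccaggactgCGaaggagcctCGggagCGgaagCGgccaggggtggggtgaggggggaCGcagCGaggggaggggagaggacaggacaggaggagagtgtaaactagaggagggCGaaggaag
Irx2: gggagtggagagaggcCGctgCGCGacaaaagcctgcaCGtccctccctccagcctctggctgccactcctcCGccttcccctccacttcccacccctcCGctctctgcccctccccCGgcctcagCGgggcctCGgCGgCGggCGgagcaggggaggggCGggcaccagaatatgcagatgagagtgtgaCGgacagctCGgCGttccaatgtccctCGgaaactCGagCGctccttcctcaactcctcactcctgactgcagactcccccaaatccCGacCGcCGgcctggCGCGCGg
Irx4: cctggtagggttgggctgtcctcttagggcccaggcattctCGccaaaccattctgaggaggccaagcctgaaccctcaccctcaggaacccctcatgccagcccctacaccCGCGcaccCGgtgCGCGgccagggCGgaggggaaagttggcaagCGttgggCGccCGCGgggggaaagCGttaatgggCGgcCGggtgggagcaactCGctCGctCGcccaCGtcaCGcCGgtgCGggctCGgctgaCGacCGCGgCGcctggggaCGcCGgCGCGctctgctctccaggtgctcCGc

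The Irx4 window, under H3K27me3, held 31 CG dinucleotides, more than 89.4% of the 32851 RefSeq start windows, at 70.7% GC. The Irx2 window, under H3K4me3, held 25 (more than 81.6% of windows) at 69.0% GC, and the Irx3 window 14 (more than 63.7%) at 56.0% GC. The median window had 7 CG dinucleotides and 52.7% GC. The ratio of observed to expected CG was 0.748 at Irx3, 0.723 at Irx2 and 0.828 at Irx4, against a median of 0.384. CG content was thus above the median under either mark. Searched on both strands, GGGCGG had 2 matches at Irx2, 2 at Irx4 and 0 at Irx3, and 35.7% of all windows hold it. CCAAT had 1 match at Irx2 and 0 at Irx3 and Irx4 (37.4% of all windows), and TATAAA had 0 in each (13.6% of all windows). No matches overlapped each other. Of all windows, 40.3% touched H3K4me3, 6.59% H3K27me3 and 2.37% succinyllysine.

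Irx3, a gene required for fast conduction in the mouse ventricle, spans chromosome 8, 91798511 to 91801654 (3144 bp). A single H3K4me3 region of 3400 bp (91799401 to 91802800) covered 71.7% of its body and the start site at its upper end. The gene lay in a stretch of 8700 bp free of H3K27me3, with the nearest H3K27me3 2610 bp below the gene and 2946 bp above it. Above the gene, H3K27me3 covered 56.0% of the next 50 kb in 15 regions, which touched the noncoding gene Irx3os. Below it the share was 9.40% in 7 regions. Within 50 kb, H3K27me3 around Irx3 therefore lay mostly above the gene. Farther below it was dense again, covering 85.0% of the 20 kb that start 100 kb before the gene.

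Irx1, the IrxA partner of Irx3 and expressed in the developing mouse lung, spans chromosome 13, 71958232 to 71963723 (5492 bp). A single H3K4me3 region of 3800 bp (71960101 to 71963900) covered 66.0% of its body up to the upper end. H3K27me3 began 1877 bp above the gene, where it covered 12.6% of 50 kb in 10 regions, the widest 1700 bp. Below the gene, H3K27me3 had 0 regions in 50 kb, and the nearest lay 102631 bp away. Within 50 kb, Irx3 and Irx1 thus both had H3K27me3 mainly above the gene, at 56.0% for Irx3 and 12.6% for Irx1. This likeness ended farther below. In the 20 kb that start 100 kb before the gene, H3K27me3 covered 85.0% at Irx3 and 0% at Irx1. From the edge of the H3K4me3 region, H3K27me3 lay 1800 bp away at Irx3 and 1700 bp away at Irx1, and 10.9% of all H3K4me3 regions have H3K27me3 within 2000 bp (median gap 52000 bp).

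Irx5, which shapes the gradient of repolarization across the mouse ventricle, spans chromosome 8, 92357796 to 92361456 (3661 bp). H3K4me3 regions of 2400 bp (92357701 to 92360100) and 400 bp (92360701 to 92361100) covered 73.9% of its body. Another region of 5000 bp (92352701 to 92357700) abutted the 2400 bp one and ran over the end of the noncoding gene Crnde, which lies next to Irx5. It is not known from the lists how much of this H3K4me3 belongs to each gene. The H3K27me3-free stretch here measured 61900 bp, with 38595 bp below and 19644 bp above the gene, and it took in all of Crnde. H3K27me3 covered 8.80% of the 50 kb below and 24.8% of the 50 kb above.

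Irx2, the partner of Irx5 and known from chick for a role in cerebellum formation, spans chromosome 13, 72624430 to 72634196 (9767 bp). Its widest H3K4me3 region measured 7400 bp (72623801 to 72631200), the 294th widest of 26654 in the list. It also ran over the noncoding gene Gm20554, whose annotation overlaps Irx2. Together with regions of 200 bp and 1300 bp it covered 84.7% of the body, the highest H3K4me3 share of the 6 members. A further region of 1200 bp lay 5005 bp above the gene. The H3K27me3-free stretch was 45600 bp, and H3K27me3 covered 2.0% of the 50 kb below and 2.40% of the 50 kb above, in regions of at most 500 bp. Irx5 and Irx2 thus both had an H3K27me3-free stretch on each side and differed beyond it. Such a stretch is not particular to this pair. That of Irx1 measured 110000 bp, nearly all below the gene. Among all genes with H3K4me3 and no H3K27me3 at their ends, the median 50 kb window had 0% H3K27me3.

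Irx6, needed by a class of cone bipolar cells in the mouse retina, spans chromosome 8, 92674289 to 92680956 (6668 bp). An H3K27me3 region of 6700 bp (92674101 to 92680800) covered 97.7% of its body, and a region of 5700 bp (92668301 to 92674000) ended 100 bp before that region. H3K27me3 covered 50.8% of the 50 kb below and 23.5% of the 50 kb above. The nearest H3K4me3 region lay 146245 bp away.

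Irx4, the partner of Irx6 and a factor of the ventricular myocardium, spans chromosome 13, 73259589 to 73269622 (10034 bp). Of the 4 H3K27me3 regions that touched its body, those of 2200 bp (73258401 to 73260600), 4700 bp (73260801 to 73265500) and 9600 bp (73266301 to 73275900) were the widest, and together the 4 covered 96.0% of it. The 9600 bp region ranked 388th by width among 98342, and the Irx6 region of 6700 bp ranked 781st. H3K27me3 covered 13.6% of the 50 kb below Irx4 and 35.8% of the 50 kb above. The nearest H3K4me3 region was 56779 bp away. Irx6 and Irx4 were therefore alike in the body and differed in which 50 kb flank held more H3K27me3, the lower one at Irx6 and the upper one at Irx4.

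**Figure D1:**
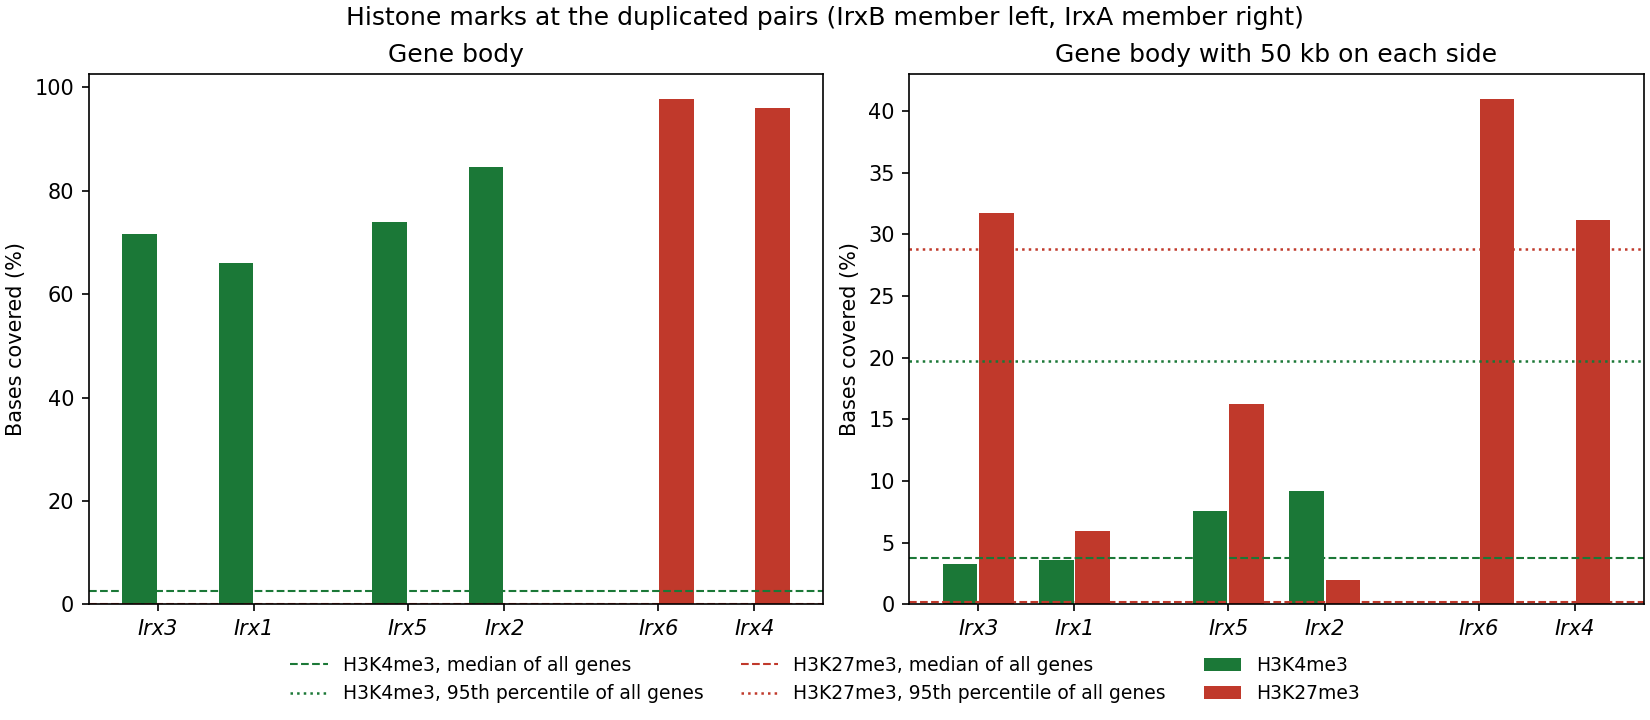
Bars give the percent of bases covered by H3K4me3 (green) and H3K27me3 (red) in the gene body (left) and in the body with 50 kb on each side (right), for the pairs Irx3 and Irx1, Irx5 and Irx2, and Irx6 and Irx4. Dashed lines are medians and dotted lines 95th percentiles over 21887 protein-coding genes. The bodies of Irx6 (97.7%) and Irx4 (96.0%) carry H3K27me3 alone and the other 4 bodies H3K4me3 alone, while in the wider windows H3K27me3 is higher at Irx3 (31.7%) and Irx5 (16.2%) than at Irx1 (5.97%) and Irx2 (2.0%).

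Counted at gene ends, within 1000 bp of either end, H3K4me3 was present at 2 of 3 IrxB members and 2 of 3 IrxA members, beside 55.6% of all protein-coding genes, a share near the background. H3K27me3 was present at 1 of 3 IrxB members and 1 of 3 IrxA members, beside 13.6% of all genes. Succinyllysine was at none of the 6, beside 5.42% of all genes, so that a count of 0 among 6 genes is near the background too. No member had both histone marks at its ends, a state of 3.13% of all genes. H3K4me3 covered at least 50% of the body in 4 of 6 members, namely Irx3, Irx5, Irx1 and Irx2, and in 7.01% of all genes. H3K27me3 did so in 2 of 6 members, Irx6 and Irx4, and in 3.58% of all genes. These genes are short, with bodies of 3144 to 10034 bp, and the share of a body that one region can cover depends on length, which was not adjusted for.

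Within 50 kb of the body, H3K27me3 was listed at all 6 members, beside 51.5% of all genes, and H3K4me3 at 4 of 6, beside 82.3% of all genes. Succinyllysine was listed at 0 of 6, beside 30.2% of all genes. The share of the window covered by H3K27me3 was 40.9% at Irx6, 31.7% at Irx3, 31.2% at Irx4, 16.2% at Irx5, 5.97% at Irx1 and 2.0% at Irx2. The median over the 6 members was 23.7%, against 0.167% over all genes, whose 95th percentile was 28.8%. For H3K4me3 the windows were covered to 9.20% at Irx2, 7.53% at Irx5, 3.60% at Irx1, 3.30% at Irx3 and 0 at Irx6 and Irx4, with a median of 3.45% in the members and 3.78% over all genes. All 6 members thus stood above the median of all genes in H3K27me3, which is itself near 0. Their H3K27me3 ranks were above 97.5% of all genes at Irx6, 95.7% at Irx3, 95.6% at Irx4 and 89.8% at Irx5. At Irx1 the rank was above 79.2% and at Irx2 above 68.9%. In H3K4me3 only the median of the members was close to that of all genes. Irx2 ranked above 77.5% of all genes and Irx5 above 71.1%, while Irx6 and Irx4 had none.

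Among the 11479 genes with H3K4me3 and no H3K27me3 at their ends, the median window had 0% H3K27me3. The window of Irx3 had more H3K27me3 than 99.2% of these genes, that of Irx5 more than 95.5%, that of Irx1 more than 86.1% and that of Irx2 more than 76.4%. Among the 2287 genes with H3K27me3 alone at their ends the median was 17.0%, and Irx6 exceeded 82.1% and Irx4 71.1% of them. Both IrxB genes with H3K4me3 thus ranked higher than their IrxA partners within the same class of genes.

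Over the 3 windows of a cluster together, IrxB had 73 H3K27me3 regions covering 93156 bp, 29.7% of 313473 bp. IrxA had 43 regions covering 42800 bp, 13.2% of 325293 bp, which is a 2.26-fold ratio of covered shares. Most of the IrxA value came from Irx4, with 34300 bp of the 42800 bp. Left to Irx3 and Irx5, the share in IrxB was 23.9%, and left to Irx1 and Irx2, that in IrxA was 3.95%. H3K27me3 regions of 1000 bp or more made up 33 of 73 in IrxB (45.2%) and 9 of 43 in IrxA (20.9%), beside 25.2% of the whole list. Median widths were 800 bp in IrxB and 500 bp in IrxA, beside 600 bp. When regions of one list within 1000 bp of each other were merged, the number of regions was the same in both clusters, so the count of 73 against 43 depends on how H3K27me3 was divided into regions. The difference in covered share was 16.6 percentage points as deposited and 19.6 after merging. H3K4me3 had 4 regions in the IrxB windows and 5 in the IrxA windows, covering 3.57% in IrxB and 4.27% in IrxA. This order reversed over the whole span, with 1.21% in IrxB and 1.06% in IrxA, and in the intervals, with 0.799% in IrxB and 0.242% in IrxA.

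**Figure D2:**
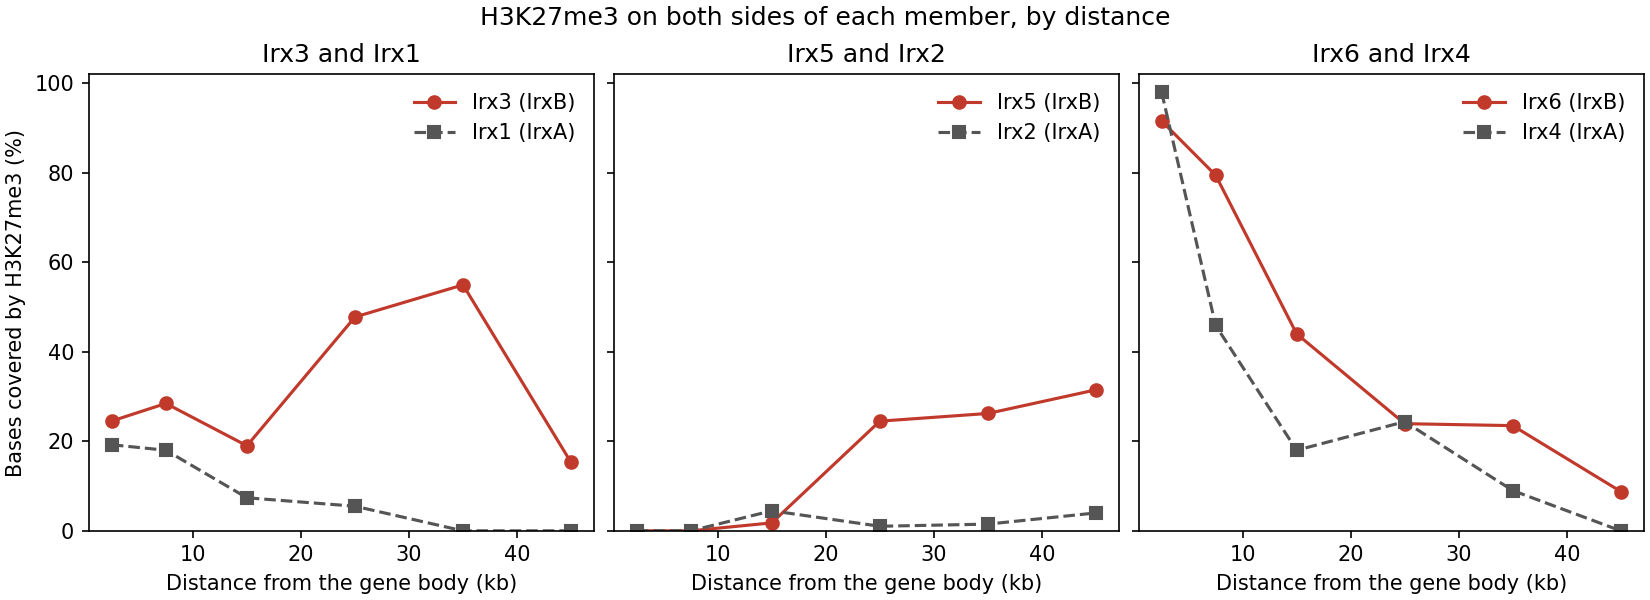
Each panel plots the percent of bases covered by H3K27me3 on both sides of a pair against distance from the gene body in kb, with the IrxB member as red circles and the IrxA member as grey squares. In the outermost step, from 40 to 50 kb, coverage is 15.3% at Irx3 and 0% at Irx1, 31.5% at Irx5 and 4.00% at Irx2, and 8.78% at Irx6 and 0% at Irx4.

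The difference within a pair varied with distance from the body. Within 5 kb, H3K27me3 covered 91.6% of the flanks of Irx6 and 98.0% of those of Irx4, 24.5% at Irx3 and 19.2% at Irx1, and 0% at both Irx5 and Irx2. From 30 to 40 kb it covered 55.0% at Irx3 and 0% at Irx1, 26.2% at Irx5 and 1.5% at Irx2, and 23.5% at Irx6 and 9.0% at Irx4. In between, from 20 to 30 kb, Irx6 at 23.9% and Irx4 at 24.4% were nearly equal, and from 10 to 20 kb Irx5 at 1.78% was below Irx2 at 4.48%. Coverage was higher at the IrxB member in all 3 pairs in both steps beyond 30 kb.

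The span from the first to the last member with 50 kb on each side measured 982446 bp for IrxB (chromosome 8, 91748511 to 92730956) and 1411391 bp for IrxA (chromosome 13, 71908232 to 73319622). H3K27me3 covered 28.5% of the IrxB span in 253 regions, against 4.85% of the IrxA span in 117 regions, a 5.88-fold ratio. Over whole chromosomes it covered 4.32% of chromosome 8 and 3.18% of chromosome 13. By number, the IrxB span had 25.8 regions per 100 kb beside 4.54 over chromosome 8, and the IrxA span 8.29 beside 3.45 over chromosome 13. Both spans were thus above their chromosome, IrxB by more. Between IrxB members, H3K27me3 covered 29.4% of the 556 kb from Irx3 to Irx5 and 29.9% of the 313 kb from Irx5 to Irx6. Between IrxA members it covered 3.42% of the 661 kb from Irx1 to Irx2 and 2.94% of the 625 kb from Irx2 to Irx4. The widest regions in these intervals measured 10100 bp in IrxB (chromosome 8, 92197301 to 92207400, 150396 bp below Irx5, touching no annotated gene) and 2200 bp in IrxA, next to or reaching into Irx4. Regions over 2000 bp numbered 24 of 253 in the IrxB span and 5 of 117 in the IrxA span. In the whole list of 98342 regions, one of 2100 bp ranked 6579th by width. All 5 of the IrxA span lay at or within 6279 bp of Irx4.

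**Figure D3:**
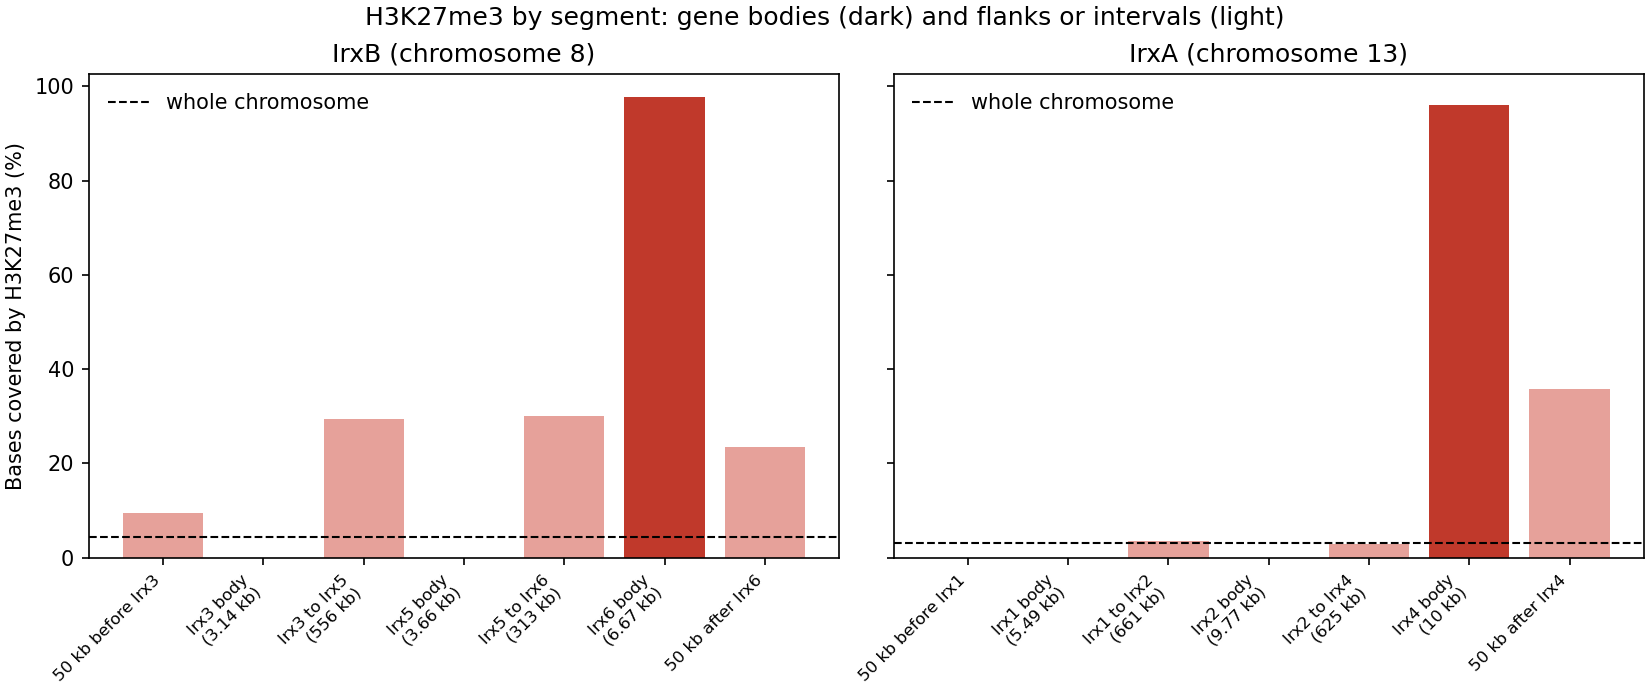
Bars give the percent of bases covered by H3K27me3 in each gene body (dark) and in each interval or 50 kb flank (light), for IrxB on the left and IrxA on the right, with the value of the whole chromosome as a dashed line. Both IrxB intervals stand at 29.4% and 29.9%, and both IrxA intervals at 3.42% and 2.94%, close to the line for chromosome 13.

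H3K27me3 in IrxB was not even. In bins of 20 kb from the first to the last member, 12 of 45 IrxB bins were at least 50% covered and 9 had none, with a median of 24.4%. Of 66 IrxA bins, 1 was at least 50% covered, the one that holds the start of Irx4 (97.5%), and 18 had none, with a median of 2.0%. In IrxB, covered bins lay above Irx3, below and above Irx5, and at Irx6, with sparse stretches between them. H3K27me3 was also dense before Irx3, beyond its 50 kb window, with 85.0% of the bin that starts 100 kb before the gene. It then stopped, and a stretch of 479300 bp without a listed H3K27me3 region began there and took in all of Fto, the nearest protein-coding gene before Irx3 and an RNA demethylase gene, which ends 130078 bp from Irx3. On the other side H3K27me3 was dense again past the 50 kb window of Irx6, with 93.0% of the bin that starts 940 kb from the start of Irx3. The nearest protein-coding gene there was Mmp2, which encodes a gelatinase and starts 146334 bp after Irx6. Fto and Mmp2 had H3K4me3 and no H3K27me3 at their ends.

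**Figure D4:**
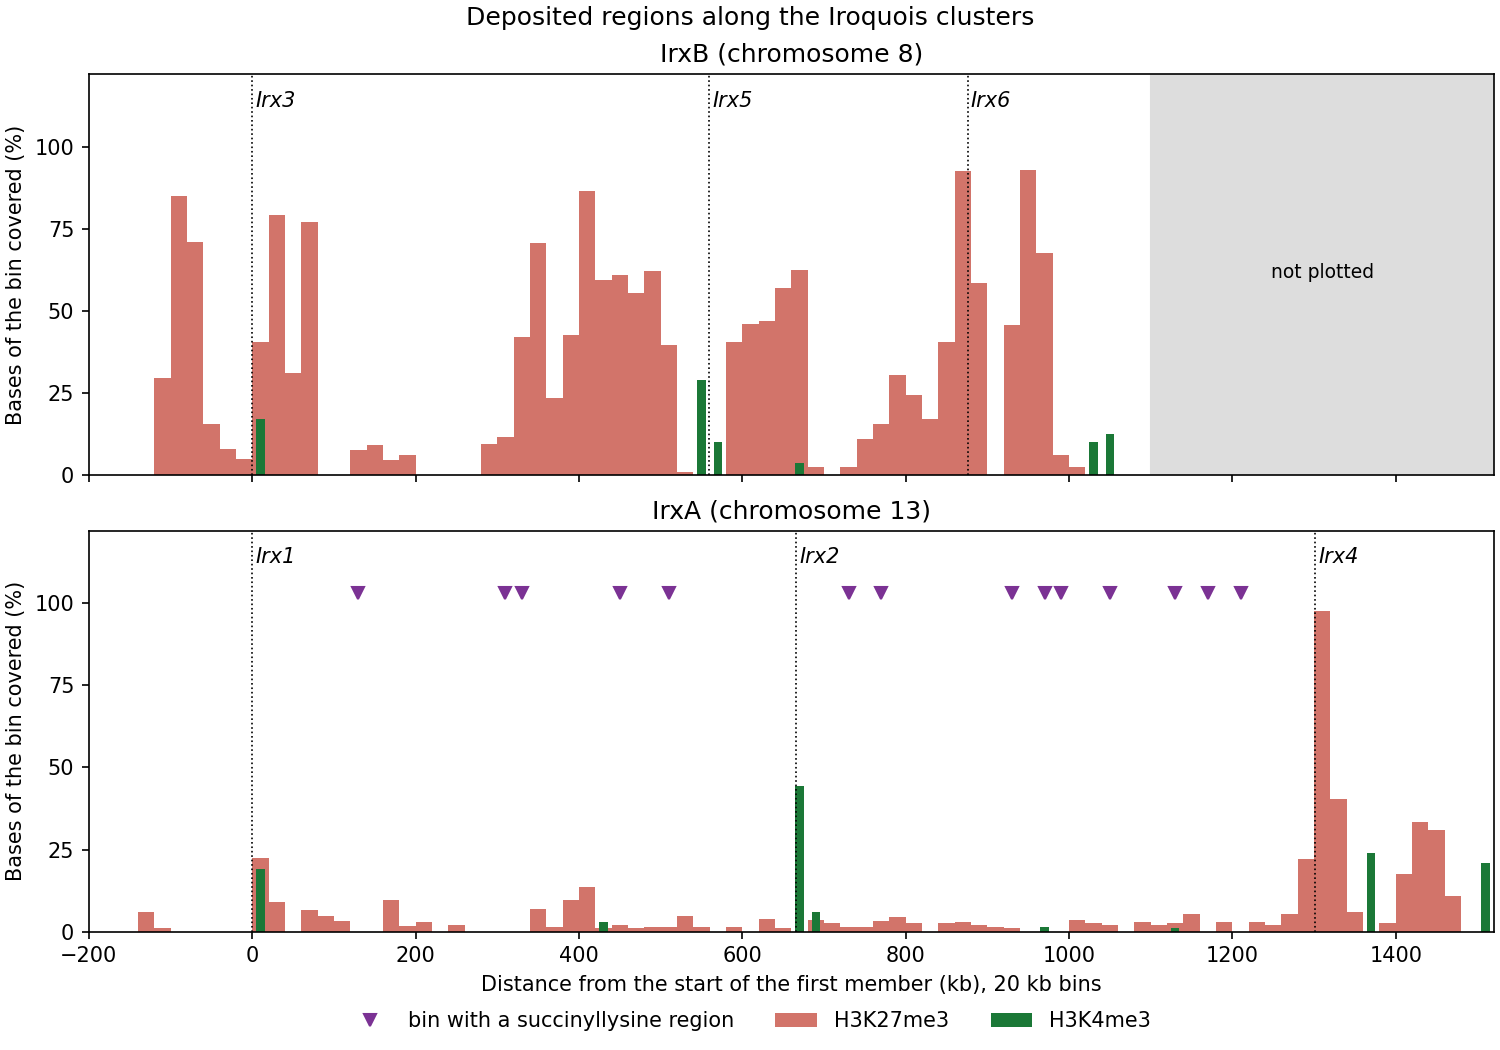
Bars give the percent of each 20 kb bin covered by H3K27me3 (red) and H3K4me3 (green) against distance in kb from the start of the first member, with IrxB above and IrxA below, and triangles mark bins with a succinyllysine region. Dotted lines mark the start of each member. In IrxB 12 of 45 bins from the first to the last member reach 50% H3K27me3, in IrxA 1 of 66, and triangles between members occur in IrxA alone.

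The neighbours of IrxA were a mixed pair. Ndufs6, a gene of respiratory complex I, starts 50254 bp after Irx4 and had H3K4me3 and no H3K27me3 at its ends, within a stretch of 45400 bp free of H3K27me3. Adamts16, a gene for a secreted metalloprotease, ends 1116387 bp before Irx1 and had H3K27me3 and no H3K4me3 at its ends. No protein-coding gene lay between members or reached into a member's window in either cluster.

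Succinyllysine had no listed region in the whole IrxB span, and the nearest region lay 1150711 bp from Irx3, 799445 bp from Irx5 and 479945 bp from Irx6. The IrxA span held 16 succinyllysine regions covering 0.291% of it, or 1.13 regions per 100 kb, beside 0.460 over chromosome 13 and 0.483 over chromosome 8. The covered share of 0.291% stood beside 0.244% over chromosome 13 and 0.296% over chromosome 8. All lay between members, 5 from Irx1 to Irx2 and 11 from Irx2 to Irx4. They were narrow, with 10 of 200 bp, 4 of 300 bp and none over 500 bp, beside a median of 300 bp in the whole list. The nearest were 115278 bp from Irx1, 62005 bp from Irx2 and 85989 bp from Irx4. Of the 16, 1 touched H3K4me3 and 2 touched H3K27me3. The share of the whole succinyllysine list that touches either mark was not computed, so these counts cannot be called few or many. The widest, 500 bp on chromosome 13 (73090301 to 73090800), touched both a 200 bp H3K4me3 region and H3K27me3. The list holds no height, so these narrow regions could not be ranked by strength.

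The Iroquois genes were set beside other TALE homeobox genes. H3K4me3 was at an end of 4 of 6 Iroquois genes and of all 12 other TALE genes examined, beside 55.6% of all protein-coding genes. H3K27me3 was at an end of 2 of 6 Iroquois genes and 0 of the 12, beside 13.6% of all genes, so that 0 of 12 is near the background. Succinyllysine was at an end of none of either set, beside 5.42% of all genes. Within 50 kb it was listed at some of the other TALE genes and absent at others, with window shares from 0 to 5.6%. It covered 4.21% of the window at Tgif1, 1.08% at Meis2 and 0.794% at Meis1. It was listed at 0 of 6 Iroquois genes, beside 30.2% of all genes. The median window was 23.7% covered by H3K27me3 in the Iroquois genes, against 0.233% in the other TALE genes. Wide H3K4me3 regions lay at Meis2 (20100 bp) and Meis1 (12400 bp), which encode partners of Hox proteins, and at Tgif1 (8900 bp), a repressor gene. Irx2, with 7400 bp, had the widest single region of the Iroquois genes. The regions of 5000 bp and 2400 bp at Irx5 abut without a gap, so this order depends on how H3K4me3 was divided into regions. The differences between the sets were not tested, since 6 genes in 2 clusters and one list per antibody give no replicates.

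Of 8 fibroblast marker genes 7 had H3K4me3 at an end (not Thy1), 3 had succinyllysine and none had H3K27me3. Of all protein-coding genes, 55.6% had H3K4me3 at an end, 5.42% succinyllysine and 13.6% H3K27me3. H3K4me3 was at 2 of 4 epithelial genes, Cdh1 (1000 bp) and Epcam (1400 bp), at 1 of 3 neuronal genes and at 0 of 3 haematopoietic and endothelial genes. H3K27me3 was at 1 epithelial gene, Epcam, and at 2 neuronal genes, and succinyllysine at 1 epithelial gene, Krt8. The H3K4me3 at these other genes was not tested against the state of the Iroquois genes.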

How the data were processed

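The 16 samples were grouped by line and antibody. Chromatin was cut with MNase and sonicated, per the labels' protocols. The submitters' processing notes name Bowtie2 (2.2.3) and mm10. The caller of the regions, its cutoff and any use of inputs or pooling were not given in the sources used here. The authors deposited one list per antibody with start and end positions and no height, taken as 1-based with both ends included, in steps of 100 bp. Gene bodies came from a RefSeq table of GRCm38.p6, protein-coding, on the chromosomes of the lists; it gives no strand or exons, so gene ends were called lower and upper. Hits needed at least 1 bp. Covered share is covered bases over window bases. Ranks and shares over all protein-coding genes are descriptions, and no test was made, because each list is a single observation and neighbouring genes are not replicates. Chromosome length is the span of listed regions and genes. Sequences came from the RefSeq start table. Interval counting was checked on simulated regions. Python 3.11.15 and matplotlib 3.10.9 were used. Named genes were all members, their protein-coding neighbours, and up to 4 other TALE genes per mark by region width. One gene that this rule names is not reported here. The members and lists were chosen with earlier results of these data known.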

Additional observations from a re-analysis of the deposited data

How the results depend on the processing

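Of 150 values recomputed under alternatives, 94 were equal or kept their sign within 1.5 times, 54 moved by more or to or from 0, and 2 reversed. Many of the 94 are succinyllysine values of 0 that stayed 0. Some of these could not change, because the alternative takes a part of windows already without a region. The tally is therefore no measure of stability. In what follows, differences are IrxB minus IrxA. The difference in H3K27me3 coverage, 16.6 percentage points, was positive under all 8 alternatives: 6.82 with flanks of 10 kb, 32.6 with flanks of 100 kb, 10.2 for bodies alone and 26.4 for the intervals between members, with the other 4 within 1.5 times. Values for bodies alone pool the bases of a cluster, so they depend on gene lengths. Member by member, H3K27me3 covered nearly equal shares of the bodies of Irx6 (97.7% of 6668 bp) and Irx4 (96.0% of 10034 bp). It covered 0% of each other body. The 10.2 points are therefore no sign of more H3K27me3 in IrxB bodies. The difference of 30 H3K27me3 regions became 0 with flanks of 10 kb and 0 after merging within 1000 bp, 135 with flanks of 100 kb and 136 over the whole span. The difference in H3K4me3 coverage, -0.70 points, became -1.05 with flanks of 10 kb and -1.05 with 100 kb, -10.2 for bodies alone, and reversed to 0.15 over the whole span and 0.56 in the intervals. That in H3K4me3 regions, -1, became -2 with flanks of 100 kb and -4 over the span. For succinyllysine, regions differed by 0, by -3 with flanks of 100 kb and by -16 over the span, and coverage by 0, by -0.096, by -0.29 and, in the intervals, by -0.32. With windows of 2500 bp at gene ends, H3K27me3 was at 2 IrxA members, since it lies 1877 bp from Irx1. The intervals between members and the windows without Irx6 and Irx4 were chosen after seeing the data. The causes were not tested, but wider flanks add bases by construction. No paired analysis was possible because the lists hold no value per sample. Depth is unknown, and a gap between regions may be unmarked or not mappable, which the lists do not tell apart.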
